A study of Mus musculus with 8 samples.

Results

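The genes described here are the replication-dependent histone genes of the mouse. They were taken by their GENCODE symbols, as every gene whose symbol starts with Hist1h, Hist2h, Hist3h or Hist4h, which gave 70 of the 55385 genes in the count table. By class, 6 encode or resemble linker histone H1, 20 H2A, 19 H2B, 12 H3 and 13 H4. By symbol, 56 belong to Hist1 on chromosome 13, 10 to Hist2 on chromosome 3, 3 to Hist3 on chromosome 11 and 1, *Hist4h4*, to Hist4 on chromosome 6. *Hist1h2al*, at chr13:51202727-51203065, lies far from the other Hist1 genes and outside their cluster. Of the 70 genes, 3 are annotated as pseudogenes (*Hist1h2aj*, *Hist1h2al* and *Hist3h2bb-ps*), and *Hist1h2al* still gave enough counts to be tested.

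RNA-seq was performed on R1 mESCs, a wild-type mouse embryonic stem cell line grown in N2B27 medium with 2i and Lif on Poly-L-Ornithine and Laminin. All groups were infected with lentivirus for 2 days and selected in puromycin for 3 days: 3 libraries carry shRNA1 and 3 carry shRNA2, each directed at *Eftud2*, a GTPase of the U5 snRNP of the spliceosome, and 2 libraries carry a non-targeting hairpin, nt-shRNA. The replicates are labelled as biological. The knockdown (KD) is transient and partial, the infected cells are a selected pool and not a clone, and RNA was poly(A)-selected before library preparation.

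Replication-dependent histone genes supply the core histones H2A, H2B, H3 and H4 and the linker histone H1 that package newly replicated DNA, and they are transcribed mainly in S phase. Most of their mRNAs have no introns and no poly(A) tail. Their 3′ end is made by a cleavage just after a short stem-loop, which is bound by SLBP and cut with the help of the U7 snRNP, although some histone genes also make polyadenylated mRNA. A poly(A)-selected library therefore holds a small part of these mRNAs, and the amounts of the tailless and the tailed forms cannot be told apart in gene counts. In bulk RNA, fewer cells in S phase and less histone mRNA per cell cannot be told apart either.

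A match to the histone stem-loop consensus was found in the annotated GENCODE M21 transcript of 46 of the 70 genes, against 53 of 21834 other protein-coding genes (0.243%). The 16-base stem-loop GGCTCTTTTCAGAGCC was the most frequent form, in 26 members and in no H4 gene, while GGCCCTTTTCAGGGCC occurred in 7 members, all H4. All sites were found with the same consensus, so their likeness follows from the search. *Hist1h2bc* and *Hist2h2be*, which the results also turn on, have no match and are not shown. The sites of 6 other members named in the results are printed below 5′ to 3′. The stem-loop is in capitals, with 5 flanking bases on each side in lower case, and GRCm38 coordinates are those of the stem-loop.
Hist1h1c, chr13:23739512-23739527, + strand: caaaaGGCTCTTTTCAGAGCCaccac
Hist1h2bb, chr13:23747203-23747218, + strand: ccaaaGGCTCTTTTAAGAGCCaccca
Hist1h3c, chr13:23745047-23745062, - strand: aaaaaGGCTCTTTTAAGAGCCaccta
Hist1h3e, chr13:23561903-23561918, - strand: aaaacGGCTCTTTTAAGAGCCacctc
Hist1h4d, chr13:23581950-23581965, + strand: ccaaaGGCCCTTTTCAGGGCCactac
Hist1h4i, chr13:22040966-22040981, - strand: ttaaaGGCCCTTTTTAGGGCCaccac

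The annotated 3′ ends fall into groups. In 23 members the transcript ends within 100 bases of the stem-loop and in another 23 it runs more than 100 bases past it, as in *Hist1h1c* (840 bases past it), *Hist1h4d* (770), *Hist1h3e* (369) and *Hist1h4i* (330). In 17 members the transcript ends within 100 bases of the stop codon, before any stem-loop, and 3 are the pseudogenes. The last 4, *Hist1h2bc*, *Hist2h2be*, *Hist1h2bq* and *Hist1h2br*, have a long 3′ end (742 bases after the stop codon in *Hist1h2bc* and 2192 in *Hist2h2be*) that holds no match. A missing match says only that these letters are not in the annotated transcript. The *Hist1h2bc* transcript is annotated with 2 exons, as are transcripts of *Hist1h2be* and *Hist1h2bp*, while *Hist1h2bq* and *Hist1h2br* have up to 3.

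The promoters of the members also differed by class. A promoter window of 250 bases before to 50 after the RefSeq start (GRCm38.p6) was given for 62 members. The CCAAT box was present on either strand in 85.5% of them, against 37.4% of 32851 promoters of the same length, and in all H1, H2A, H2B and H3 promoters but only 3 of 12 H4 promoters. TATAAA was found in 56.5% against 13.6%, and the octamer-like ATGCAAA, a site for POU factors, in 24.2% against 4.63%, at 7 of 16 H2B and 7 of 18 H2A promoters. These matches are a description and not evidence of binding.

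Libraries held 19569525 to 29871048 counted fragments. *Eftud2* was at 232, 229 and 225 CPM (counts scaled to 1000000 a library) with shRNA1, 198, 202 and 235 with shRNA2 and 262 and 256 with nt-shRNA. Its log2 fold change was -0.18 with shRNA1 (SE 0.0678, adjusted p = 0.0514, edgeR) and -0.29 with shRNA2 (SE 0.0678, adjusted p = 0.00122), and all 6 KD libraries lay below both controls. These falls in counts are much smaller than the KD efficiencies that the paper reports from qPCR for both hairpins. The paper also reports less EFTUD2 protein by western blot with either hairpin, and plots the KD of *Eftud2* from DESeq2. The stem cell markers *Pou5f1*, *Sox2*, *Nanog*, *Klf4*, *Esrrb* and *Zfp42* were at 177 CPM or more in every library. Of these 6, 3 were higher with shRNA1 and 4 with shRNA2, beside 13.8% and 27.2% of all tested genes. *Klf4* (0.65 with shRNA1 and 1.32 with shRNA2) and *Nanog* (0.55 and 0.76) were among them, and *Pou5f1* was lower (-0.35 and -0.29). *Zfp42*, also higher with shRNA1, was at 0.20 (adjusted p = 0.0249, edgeR) and at 0.17 without nt-shRNA replicate 1. Of 6 tested markers of early lineages, *T* was lower with shRNA1 (-0.81) and *Gata6* with shRNA2 (-0.75), the former not without nt-shRNA replicate 1 (adjusted p = 0.0649). The fibroblast markers *Col3a1*, *Dcn* and *Lum* were at 0.0494 CPM or less, while *Col1a2* was higher with both hairpins (1.27 and 1.66, adjusted p = 0.0103 and 4.3e-04), though not with shRNA1 without nt-shRNA replicate 1 (0.91, adjusted p = 0.148). The 6 fibroblast markers listed summed to 4.95 and 4.56 CPM with nt-shRNA and to 6.28 to 7.48 CPM in the KD libraries, and the part of these markers in the histone results was not tested.

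The 2 nt-shRNA libraries did not match in RNAs that lack a poly(A) tail, nor in most of the histone genes. Of the 31 members tested, 29 were higher in nt-shRNA replicate 1 than in replicate 2 (93.5%, against 50.4% of all tested genes), with a median ratio of 1.72 against 1 over all tested genes. *Rn7sk*, the 7SK RNA that regulates transcription elongation and has no poly(A) tail, was at 77.2 CPM in nt-shRNA replicate 1, 13.0 in replicate 2, 2.89, 4.39 and 3.21 with shRNA1 and 1.72, 2.62 and 2.11 with shRNA2. *Rnu12*, a small nuclear RNA of the minor spliceosome, was at 4.27 and 1.08 CPM in the controls and at most 0.406 in any KD library. In sum, 12 RNAs without a tail, listed after the counts had been seen, stood at 94.0 and 15.7 CPM with nt-shRNA and at 2.37 to 5.08 CPM in the KD libraries, and *Terc*, *Rnu11*, *Rnu7* and *Rn7s6* had no count in any library. How much of the RNA without a tail passed the poly(A) selection in each library, and its part in the histone results, was not tested. Tests of single histone genes against nt-shRNA are therefore given with and without nt-shRNA replicate 1, but leaving it out did not make the groups alike in these RNAs. *Rn7sk* was then still at -1.91 with shRNA1 and -2.60 with shRNA2. The tailless RNAs *Rny1*, *Rny3* and *Rnu12* were also tested. They were at most 0.406 CPM in any KD library, under the 0.455 CPM cutoff of the filter with all libraries. They passed it through the controls, so their lower values describe this selection too.

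**Figure D1:**
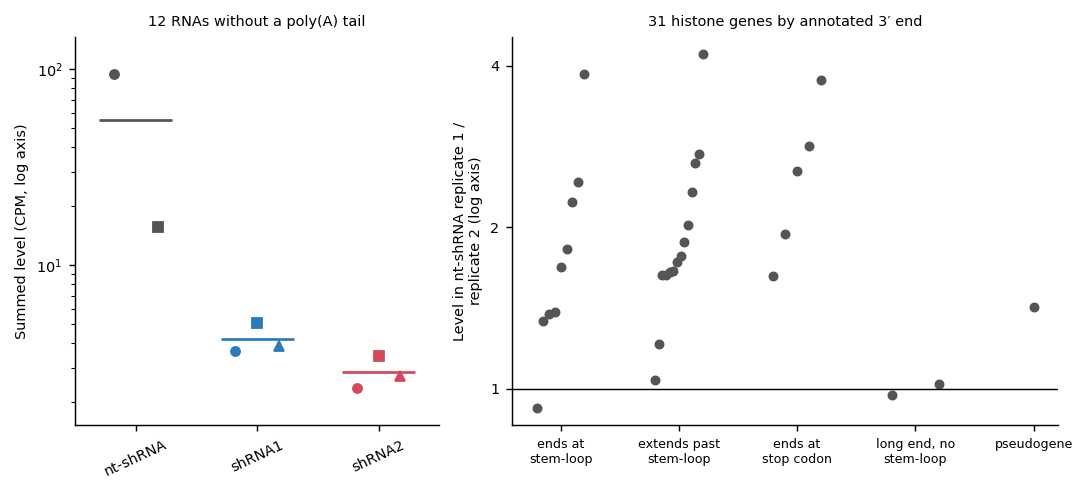
Left, summed level (CPM, log axis) of 12 RNAs without a poly(A) tail in each library, with group means as lines: the nt-shRNA libraries are at 94.0 and 15.7 CPM and the KD libraries at 2.37 to 5.08. Right, level in nt-shRNA replicate 1 divided by replicate 2 (log axis) for the 31 tested histone genes by annotated 3′ end: all but 2 are above 1, and the 2 genes with a long end and no stem-loop are at 0.972 and 1.02.

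Histone gene counts were small in all libraries. The 70 genes together had 637 to 2022 counts a library. No count was seen for 8 of them, for each of which 3 counts over all libraries, 0.0156 CPM, is the upper limit that counting allows, and at least 86.4% of the 100-base windows of these 8 genes are shared with another gene. Fragments that align to several places were not counted, so the near-identical genes are under-counted to an unknown degree. Exons of 26 members overlap exons of another gene and lose fragments in the same way. Counting used no strand, so antisense reads cannot be told apart.

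Summed over all 70 genes, histone mRNA was lower in every KD library than in either control. The sum was 28.7, 34.4 and 33.4 CPM with shRNA1 (32.2 ± 3.03, SD, n = 3), 35.3, 38.1 and 35.4 with shRNA2 (36.2 ± 1.61, n = 3) and 75.8 and 41.9 with nt-shRNA (58.9 ± 23.9, n = 2). The groups did not overlap, but the controls lay further from each other than nt-shRNA replicate 2 lay from any KD library. The mean of shRNA1 was 0.547 times that of nt-shRNA and 0.767 times nt-shRNA replicate 2, and that of shRNA2 0.616 and 0.864 times. No test was made on sums over the members.

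H3, one of the 2 histones at the centre of the nucleosome, was the class with the lowest level relative to the control. Its 12 genes summed to 4.47, 5.03 and 5.31 CPM with shRNA1, 3.12, 4.24 and 3.81 with shRNA2 and 15.9 and 8.05 with nt-shRNA. The KD libraries lay below both controls, at 0.31 times the control mean with shRNA2 and 0.462 times nt-shRNA replicate 2. With shRNA1 the ratios were 0.412 and 0.613.

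H4, which pairs with H3, summed to 5.23, 5.97 and 5.81 CPM with shRNA1, 6.46, 7.62 and 6.98 with shRNA2 and 15.4 and 8.19 with nt-shRNA. The shRNA1 mean was 0.693 times nt-shRNA replicate 2 and the shRNA2 mean 0.857 times. *Hist1h4i* alone made up 19.9% of the H4 sum with nt-shRNA, 33.5% with shRNA1 and 52.6% with shRNA2. Without it the log2 ratio of the H4 sum, shRNA2 against nt-shRNA, went from -0.75 to -1.51, and against nt-shRNA replicate 2 alone from -0.22 to -0.98.

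H2B was the class in which KD and control libraries overlapped. Its sum was 7.53, 9.67 and 8.31 CPM with shRNA1, 11.2, 11.4 and 10.8 with shRNA2 and 15.1 and 9.09 with nt-shRNA, so that the shRNA2 libraries lay between the controls. *Hist1h2bc* made up 26.4% of the H2B sum with nt-shRNA, 46.9% with shRNA1 and 62.1% with shRNA2. Without this gene the log2 ratio of the H2B sum, shRNA2 against nt-shRNA, went from -0.12 to -1.08, and against nt-shRNA replicate 2 alone from 0.29 to -0.47. The ratios that leave out both a gene and a control library were chosen after seeing the data.

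The linker histone H1 genes summed to 9.07, 10.9 and 11.0 CPM with shRNA1, 12, 12.3 and 10.9 with shRNA2 and 23.1 and 13.4 with nt-shRNA. Within H1, *Hist1h1c* supplied 52.5% of the sum with nt-shRNA and 67.5% with shRNA2. The 20 H2A genes summed to only 2.44 to 2.99 CPM in the KD libraries and to 6.19 and 3.21 with nt-shRNA. All KD libraries were below both controls in H1 and H2A.

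**Figure D2:**
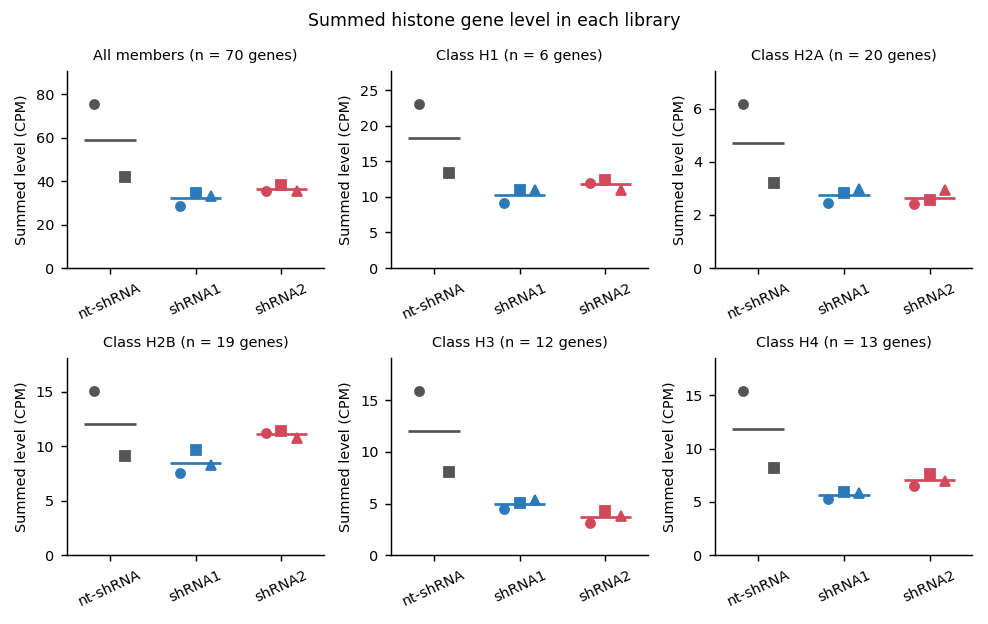
Summed level (CPM) of all 70 histone genes and of each class in each library; symbols mark the replicate and lines the group mean. The KD libraries lie below both nt-shRNA libraries in all panels but H2B, and nt-shRNA replicate 1 stands above replicate 2 in each.

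Single genes were tested where they passed the filter on low counts, which 31 of the 70 did: 5 of H1, 3 of H2A, 7 of H2B, 7 of H3 and 9 of H4. Of these, 9 passed the count minimum in fewer than 2 KD libraries, so that they had to be higher in a control to be tested, and counts over the tested members describe this selection too. They are *Hist1h2ah*, *Hist1h2al*, *Hist1h2bg*, *Hist1h3d*, *Hist1h3i*, *Hist1h4h*, *Hist1h4k*, *Hist2h4* and *Hist4h4*, and a lower call of any of them is a description that the filter favours. The 39 genes left out had 0 to 83 counts over all libraries.

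With shRNA1, 17 of the 31 tested genes were lower than with nt-shRNA at an adjusted p under 0.05 (edgeR), where 17.1% of all tested genes were lower. The median log2 fold change was -1.01, against -0.01 over all tested genes. Without nt-shRNA replicate 1 a single gene, *Hist1h4d*, was lower among 30 tested (9.41% of all genes), and the median was -0.63. No tested histone gene was higher with shRNA1, in edgeR or in DESeq2, at an adjusted p under 0.05, and the count at an unadjusted p under 0.05 was also 0, where 13.8% of all tested genes were higher. DESeq2 called 11 genes lower, and edgeR without shRNA1 replicate 1 also 11. Neither count was set against the share of all genes lower in its own fit, so neither is shown to exceed it. With no filter, 21 of 62 genes were lower, beside 8.60% of all genes, and 4 of the 10 genes with at least 10 counts in every library were, beside 16.6% of the genes that pass this filter, with a median of -0.38.

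With shRNA2, 18 of the 31 tested genes were lower, beside 28.7% of all tested genes, and 2 were higher, beside 27.2%. The median was -1.23, against 0.00 over all tested genes. With nt-shRNA replicate 1 left out, 10 of 30 genes were lower (22.7% of all genes), all of them among the 18, and the same 2, *Hist1h2bc* and *Hist1h4i*, were higher, against 20% of all genes, and the median was -0.86. Without nt-shRNA replicate 2, 40 genes were tested and the median was -1.54. The genes added there passed the filter through nt-shRNA replicate 1, which favours lower values. *Hist1h2bl*, for example, was at 1.01 CPM in that library and at most 0.275 CPM in any KD library. *Hist1h2bc* was at 1.13 in this fit and *Hist1h4i* at 0.26. The 10 genes are *Hist1h1a*, *Hist1h2bb*, *Hist1h2bg*, *Hist1h2bk*, *Hist1h3a*, *Hist1h3c*, *Hist1h3e*, *Hist1h3f*, *Hist1h4a* and *Hist1h4d*. With no filter, 25 of 62 were lower and 2 higher, beside 15.2% and 13.5% of all genes. Of the 10 genes with at least 10 counts in every library, 3 were lower and 2 higher, with a median of -0.07, where 29.5% of all genes that pass this filter were lower and 30.0% higher.

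The KD libraries were all below both controls in 20 of 31 genes with shRNA1, where 30.2% of all tested genes were, and in 17 with shRNA2, where 36.0% were. The comparisons with shRNA1 and shRNA2 share their control libraries. Their values are therefore given side by side below, and calls with both hairpins are not independent of each other.

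**Figure D3:**
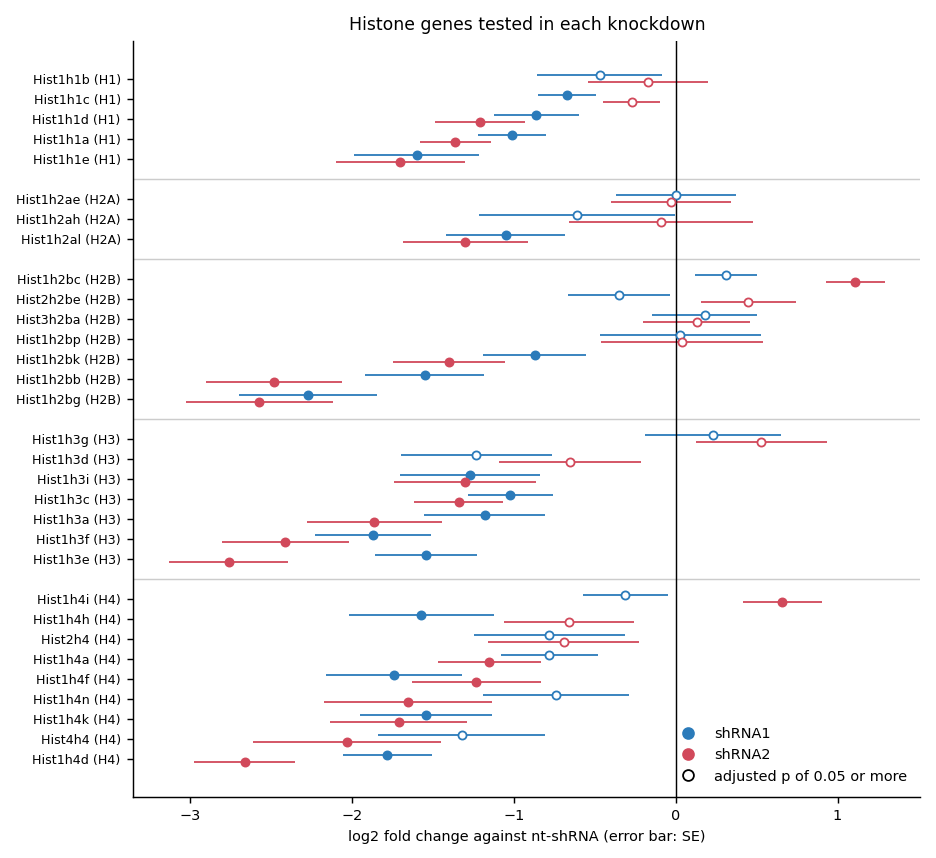
Log2 fold change against nt-shRNA with its SE for the 31 tested histone genes, by class, in shRNA1 and shRNA2 KD; filled points have an adjusted p under 0.05. Most points lie left of 0, and *Hist1h2bc* and *Hist1h4i* with shRNA2 are the filled points to its right.

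Among the H3 genes, *Hist1h3e* (H3c6, chromosome 13) differed most from the control with shRNA2. It was at 1.35, 1.18 and 1.14 CPM with shRNA1, 0.558, 0.586 and 0.413 with shRNA2 and 5.25 and 1.92 with nt-shRNA. The 3 groups did not overlap, with shRNA2 lowest. The log2 fold change was -1.54 with shRNA1 (SE 0.314, adjusted p = 0.00103) and -2.76 with shRNA2 (SE 0.368, adjusted p = 3.7e-06), a level 6.79-fold lower. In the fit lacking nt-shRNA replicate 1, it was -0.65 with shRNA1 (adjusted p = 0.143) and -1.88 with shRNA2 (adjusted p = 1.5e-04).

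*Hist1h3f* (H3c7), whose transcript runs 365 bases past its stem-loop, was at 0.361, 0.494 and 0.535 CPM with shRNA1, 0.279, 0.406 and 0.275 with shRNA2 and 2.44 and 1.05 with nt-shRNA. Its log2 fold change was -1.87 with shRNA1 and -2.41 with shRNA2 (adjusted p = 5.9e-04 and 3.7e-05), and without nt-shRNA replicate 1 it was -1.15 and -1.69 (adjusted p = 0.0561 and 0.00373). *Hist1h3c* (H3c3), which ends 74 bases after its stem-loop, was at 1.17, 1.23 and 1.85 CPM with shRNA1, 0.884, 1.22 and 1.38 with shRNA2 and 3.71 and 2.19 with nt-shRNA. It was called lower with both hairpins, and without nt-shRNA replicate 1 it was at -0.60 with shRNA1 (adjusted p = 0.201) and -0.92 with shRNA2 (adjusted p = 0.0248). Both genes were below both controls in all 6 KD libraries.

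*Hist1h3a* and *Hist1h3i* were lower with both hairpins, by log2 values of -1.18 to -1.86, *Hist1h3i* having passed the count minimum in 1 KD library. When nt-shRNA replicate 1 was left out, *Hist1h3a* was at -0.92 with shRNA1 (adjusted p = 0.204) and -1.61 with shRNA2 (adjusted p = 0.0171), and *Hist1h3i* at -0.73 and -0.77, called with neither (adjusted p = 0.407 and 0.284). *Hist1h3g* (0.23 and 0.53) and *Hist1h3d* (-1.23 and -0.65) did not pass the test with either hairpin. Without nt-shRNA replicate 1 they were at 0.45 and 0.75 and at -0.83 and -0.26, again without passing it.

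Among the H4 genes, *Hist1h4d* (H4c4) was the gene whose lower level was called with both hairpins, also without nt-shRNA replicate 1. It was at 0.767, 0.740 and 1.07 CPM with shRNA1, 0.605, 0.271 and 0.551 with shRNA2 and 3.75 and 2.30 with nt-shRNA. All KD libraries lay well below both controls. Its log2 fold change was -1.78 with shRNA1 (SE 0.276, adjusted p = 8.4e-05) and -2.66 with shRNA2 (SE 0.312, adjusted p = 8.1e-07), and without nt-shRNA replicate 1 it was -1.39 (adjusted p = 0.00576) and -2.27 (adjusted p = 4.4e-05). None of its 100-base windows is shared with another gene.

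Other H4 genes were called in part. *Hist1h4f* and *Hist1h4k* were lower with both hairpins, at -1.74 and -1.54 with shRNA1 and -1.23 and -1.71 with shRNA2. With nt-shRNA replicate 1 left out, neither gene was called: *Hist1h4f* was at -1.49 and -0.99 (adjusted p = 0.0639 and 0.128) and *Hist1h4k* at -0.73 and -0.91 (adjusted p = 0.332 and 0.148). *Hist1h4h* was lower with shRNA1 (-1.57) but not called with shRNA2 (-0.66), and without nt-shRNA replicate 1 it was at -0.89 and 0.01, called with neither. *Hist1h4a*, *Hist1h4n* and *Hist4h4* were lower with shRNA2 (-1.15, -1.65 and -2.03) and not called with shRNA1. *Hist1h4h*, *Hist1h4k* and *Hist4h4* each passed the count minimum in 1 KD library. Of the genes called with shRNA2 alone, *Hist1h4a* was still called with shRNA2 without nt-shRNA replicate 1 (-1.13, adjusted p = 0.0318), while *Hist1h4n* (-1.17, adjusted p = 0.158) and *Hist4h4* (-0.69, adjusted p = 0.44) were not. *Hist2h4* was not called in either (-0.78 and -0.69) and fell below the filter without nt-shRNA replicate 1. Of *Hist1h4k*, 64.3% of windows are shared with other genes, and of *Hist1h4n* 80.7%.

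The H4 gene that went the other way was *Hist1h4i* (H4c9), which has a stem-loop, 330 bases after it and an ATTAAA poly(A) signal in that stretch. Such a signal also follows the stem-loop of *Hist1h4d* (ATTAAA), *Hist4h4* and *Hist1h4a* (both AATAAA), which were called lower with shRNA2. *Hist1h4i* was at 1.67, 2.17 and 1.85 CPM with shRNA1, 3.44, 4.64 and 2.98 with shRNA2 and 3.07 and 1.64 with nt-shRNA. The shRNA2 libraries were above all shRNA1 libraries and overlapped nt-shRNA replicate 1. Its log2 fold change was -0.31 with shRNA1 (adjusted p = 0.397) and 0.66 with shRNA2 (SE 0.243, adjusted p = 0.0276), and 0.21 and 1.17 without nt-shRNA replicate 1 (adjusted p = 0.696 and 0.00288). With nt-shRNA replicate 2 left out instead, the shRNA2 value was 0.26 and the call was lost (adjusted p = 0.436).

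H2B genes went in both directions. *Hist1h2bb* (H2bc3), which ends 23 bases after its stem-loop, was at 0.496, 0.592 and 0.963 CPM with shRNA1, 0.512, 0.180 and 0.413 with shRNA2 and 2.96 and 1.22 with nt-shRNA. Its log2 fold change was -1.55 with shRNA1 (adjusted p = 0.0033) and -2.48 with shRNA2 (adjusted p = 5.7e-05), and without nt-shRNA replicate 1 it was -0.79 (adjusted p = 0.21) and -1.72 (adjusted p = 0.00509). *Hist1h2bg* (H2bc8), which passed the count minimum in both controls and in no KD library, was at -2.27 and -2.57, from 2.02 and 0.766 CPM with nt-shRNA to 0.138 to 0.321 CPM in the KD libraries. In the fit lacking nt-shRNA replicate 1, it was at -1.42 with shRNA1 (adjusted p = 0.0507) and -1.72 with shRNA2 (adjusted p = 0.00998). *Hist1h2bk* (H2bc12) was called lower with both hairpins (-0.87 and -1.40) and was nearly level in the controls, at 0.900 and 0.976 CPM, but 70.8% of its windows are shared with other genes. When nt-shRNA replicate 1 was left out, it was at -0.93 and -1.46, called with shRNA2 and not with shRNA1 (adjusted p = 0.0105 and 0.129).

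*Hist1h2bc* (H2bc4) was higher with shRNA2. It was at 3.34, 5.13 and 3.49 CPM with shRNA1, 7.30, 7.22 and 6.20 with shRNA2 and 3.15 and 3.24 with nt-shRNA. The controls were level with each other, and all shRNA2 libraries were above all others. The log2 fold change was 0.31 with shRNA1 (SE 0.19, adjusted p = 0.236) and 1.11 with shRNA2 (SE 0.181, adjusted p = 3.9e-05), and without nt-shRNA replicate 1 the values were 0.29 (adjusted p = 0.467) and 1.09 (adjusted p = 0.00103).

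*Hist2h2be* (H2bc21, chromosome 3), whose annotated 3′ end is the longest among the tested H2B genes, was at 0.451, 0.592 and 0.606 CPM with shRNA1, 0.930, 0.992 and 0.964 with shRNA2 and 0.712 and 0.697 with nt-shRNA. The shRNA1 libraries were all below and the shRNA2 libraries all above the controls. Neither difference passed the test (log2 fold change -0.35 with adjusted p = 0.432 and 0.45 with adjusted p = 0.201), and without nt-shRNA replicate 1 the values were -0.33 and 0.46. *Hist3h2ba* (0.18 and 0.13) and *Hist1h2bp* (0.03 and 0.04) did not pass it either. Without nt-shRNA replicate 1 *Hist3h2ba* was at 0.32 and 0.26 and *Hist1h2bp* at 1.27 with both hairpins, again without passing it (adjusted p = 0.224 and 0.143 for *Hist1h2bp*).

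The H1 genes differed among themselves. *Hist1h1c* (H1f2), the histone gene with the highest mean level, was at 5.01, 6.47 and 6.56 CPM with shRNA1, 8.18, 8.66 and 6.93 with shRNA2 and 11.9 and 7.28 with nt-shRNA. All shRNA1 libraries but only 1 shRNA2 library lay below both controls. Its log2 fold change was -0.67 with shRNA1 (SE 0.179, adjusted p = 0.0082) and -0.27 with shRNA2 (adjusted p = 0.202), and without nt-shRNA replicate 1 it was -0.27 (adjusted p = 0.359) and 0.12 (adjusted p = 0.637).

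*Hist1h1a* (H1f1) was at 1.94, 2.22 and 2.39 CPM with shRNA1, 1.53, 1.62 and 1.97 with shRNA2 and 5.47 and 3.38 with nt-shRNA. All 6 KD libraries were below both controls, with log2 fold changes of -1.01 (adjusted p = 0.00122) and -1.36 (adjusted p = 3.3e-05). With nt-shRNA replicate 1 left out, it was called with shRNA2 (-0.98, adjusted p = 0.00314) and not with shRNA1 (-0.62, adjusted p = 0.0804). *Hist1h1d* (-0.86 and -1.21) and *Hist1h1e* (-1.60 and -1.70) were also called lower with both hairpins, while *Hist1h1b* was not (-0.47 and -0.17). In the fit lacking nt-shRNA replicate 1, these 3 genes did not pass the test, with *Hist1h1d* at -0.46 and -0.82, *Hist1h1e* at -1.02 and -1.12 and *Hist1h1b* at 0.45 and 0.75.

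H2A was the least measured class, with 3 tested genes. The pseudogene *Hist1h2al* was lower with both hairpins (-1.05 and -1.30), though 32.2% of its exon bases overlap another gene and it passed the count minimum in 1 KD library. When nt-shRNA replicate 1 was left out, it was at -0.79 and -1.04 and called with neither (adjusted p = 0.29 and 0.102). *Hist1h2ae*, with the highest mean level of the class, was at 0.812, 0.790 and 0.463 CPM with shRNA1, 0.465, 0.722 and 0.780 with shRNA2 and 0.862 and 0.488 with nt-shRNA. The groups overlapped, and neither this gene (0.00 and -0.03) nor *Hist1h2ah* (-0.61 and -0.09) passed the test. Without nt-shRNA replicate 1 they were at 0.46 and 0.42 and at 0.59 and 1.10, again without passing it.

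Per kilobase of annotated exon, the order of the genes changed between groups. With nt-shRNA the highest levels were those of *Hist1h1c* (6.14 CPM per kilobase), *Hist1h1a* (5.97), *Hist1h3c* (4.69), *Hist1h3e* (4.28) and *Hist1h2bb* (4.11), as means over both libraries. In nt-shRNA replicate 2 alone they were *Hist1h1c* (4.67), *Hist1h1a* (4.56), *Hist1h3c* (3.48), *Hist1h2bc* (2.80), *Hist1h2bb* (2.40) and *Hist1h3e* (2.29), so the places of the last 3 depend on the control library. With shRNA2 they were those of *Hist1h2bc* (5.97), *Hist1h1c* (5.08) and *Hist1h4i* (5.08), while *Hist1h3e* was at 0.621 and *Hist1h2bb* at 0.725. Levels this low rest on few counts, and neighbours in this order were not tested against each other.

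**Figure D4:**
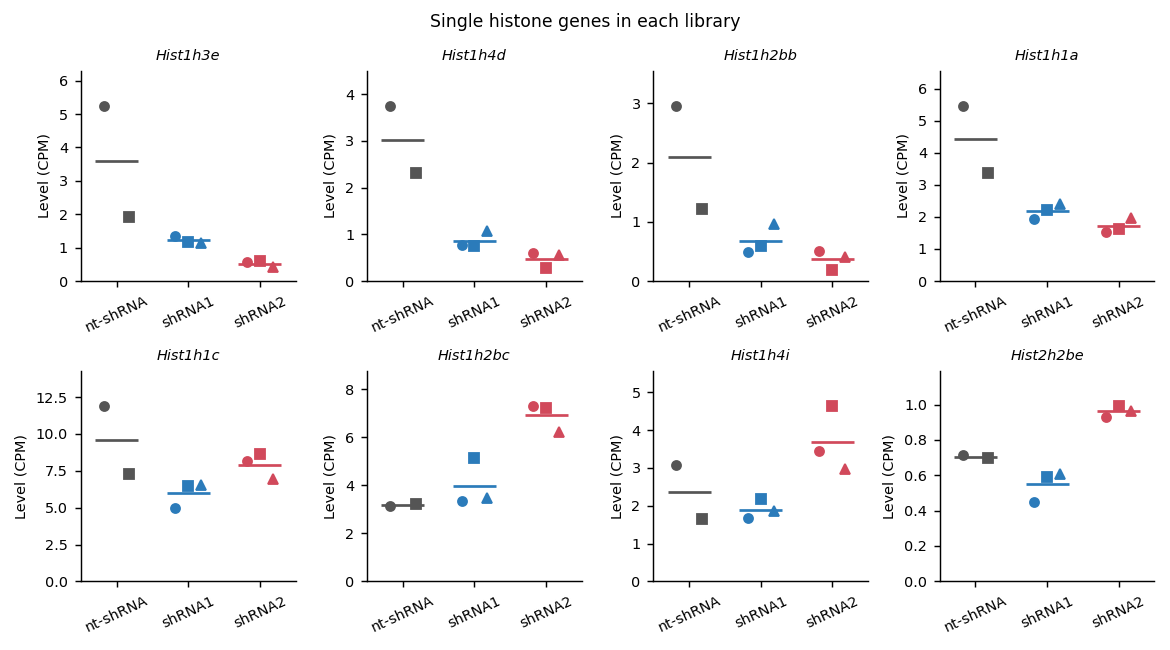
Level (CPM) of 8 histone genes in each library; symbols mark the replicate and lines the group mean. The upper 4 genes are below both nt-shRNA libraries in all KD libraries, and *Hist1h2bc*, *Hist1h4i* and *Hist2h2be* are higher in each shRNA2 library than in any shRNA1 library.

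In the direct comparison of shRNA2 with shRNA1 the control libraries do not enter the difference itself, but they do enter the filter, the scaling and the estimate of the spread. The KD libraries also differed in *Rn7sk*, which was lower in all shRNA2 than in all shRNA1 libraries. Its log2 difference was -0.68 (SE 0.591, adjusted p = 0.389) with the controls in the fit and -0.69 (SE 0.207, adjusted p = 0.0145) in a fit of the 6 KD libraries alone, and its part in the histone differences was not tested. Of 31 tested histone genes, 3 were higher with shRNA2 and 1 was lower, beside 16.9% and 18.7% of all tested genes (35.6% in both directions), with a median log2 difference of -0.10. *Hist1h2bc* was higher by 0.80 (SE 0.159, adjusted p = 7.5e-04), *Hist1h4i* by 0.96 (SE 0.229, adjusted p = 0.00309) and *Hist2h2be* by 0.79 (SE 0.282, adjusted p = 0.0342). *Hist1h3e* was lower, at -1.23 (SE 0.411, adjusted p = 0.0258). Without shRNA1 replicate 1, shRNA1 replicate 3, shRNA2 replicate 1 or shRNA2 replicate 2, the 2 genes called were *Hist1h2bc* and *Hist1h4i*. Without shRNA1 replicate 2, *Hist1h3e* was called as well, and without shRNA2 replicate 3, *Hist1h1c* and *Hist1h4n* were. *Hist2h2be* thus lost its call whichever KD library was left out. In the fit of the 6 KD libraries alone, 14 histone genes passed the filter, and 4 of them were higher and 2 lower with shRNA2, beside 16.2% and 19.2% of all genes. They were the 4 genes above, *Hist1h1c* (0.39, adjusted p = 0.0391) and *Hist1h4d* (-0.88, adjusted p = 0.0471).

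By annotated 3′ end, the 2 tested genes with a long end and no stem-loop were both higher with shRNA2 than with shRNA1, at 0.79 and 0.80. Of the 14 that extend past the stem-loop, 1 was higher and 1 lower, with a median of -0.20. The 9 that end at the stem-loop ranged from -0.93 to 0.91 with a median of -0.32, and the 5 that end at the stop codon from -0.36 to 0.52 with a median of -0.03, without passing the test. The grouping by 3′ end was made after the values had been seen and was not tested. In the comparison with nt-shRNA, the median log2 fold change was -1.02 with shRNA1 and -1.34 with shRNA2 for genes ending at the stem-loop, and -1.04 and -1.18 for those extending past it. With nt-shRNA replicate 1 left out, these medians were -0.79 and -0.99, and -0.65 and -0.82.

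**Figure D5:**
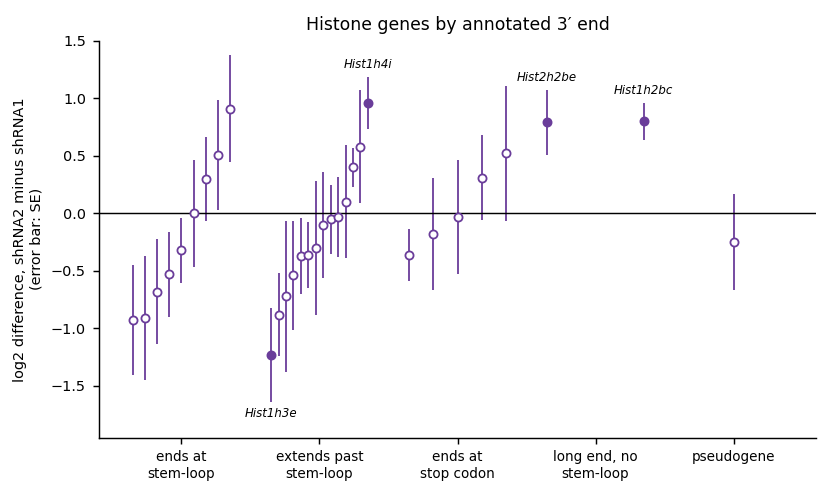
Log2 difference, shRNA2 minus shRNA1, with its SE for the 31 tested histone genes by annotated 3′ end; filled points have an adjusted p under 0.05. The 2 genes with a long end and no stem-loop are at 0.79 and 0.80, the 3 groups that end at or past the stem-loop or at the stop codon hold genes on both sides of 0, and the 1 pseudogene is at -0.25.

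Genes of histone mRNA processing rose and fell. Of 16 tested, 5 were higher and 2 lower with shRNA1, and 8 were higher and 4 lower with shRNA2 (medians 0.12 and 0.15, against -0.01 and 0.00 over all tested genes). Over all tested genes 13.8% were higher and 17.1% lower with shRNA1 and 27.2% and 28.7% with shRNA2, so that 4 of 16 lower with shRNA2 is near the share of all genes. *Ncbp2* and *Srrt*, which encode a subunit of the nuclear cap-binding complex and its partner ARS2, were higher with both hairpins, at 0.24 and 0.23 with shRNA1 and 0.87 and 0.65 with shRNA2. *Eri1*, an exonuclease that trims the stem-loop end, and *Tut7*, which adds uridines to RNAs under decay, were also higher, at 0.27 and 0.29 with shRNA1 and 0.44 and 0.51 with shRNA2. *Sympk*, the scaffold of the histone cleavage complex, was lower (-0.26 and -0.45). *Slbp*, the stem-loop binding protein, was higher with shRNA1 (0.20, adjusted p = 0.0207) and was at 0.09 with shRNA2 (adjusted p = 0.204). In the fit lacking nt-shRNA replicate 1, *Eri1* and *Tut7* were the 2 genes of this list and the transcription list called with shRNA1 (6.91% of all genes were higher), and *Ncbp2*, *Srrt*, *Eri1*, *Tut7* and *Sympk* were all called with shRNA2. A total of 5 genes of the lists were called with shRNA1 without shRNA1 replicate 1 or shRNA1 replicate 2. These counts were not set against the share of all genes called in those fits, so neither is shown to exceed it.

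Of 7 genes of histone locus transcription, 2 were higher and 2 lower with each hairpin (medians -0.02 and 0.10), which with shRNA2 is near the 27.2% and 28.7% of all genes. *Ccne2*, a cyclin E that drives S-phase entry, and *Cramp1l* were higher, at 0.38 and 0.22 with shRNA1 and 0.55 and 0.45 with shRNA2. *Cdk2*, the kinase partner of cyclin E, was lower (-0.22 and -0.33). When nt-shRNA replicate 1 was left out, these 3 genes were called with shRNA2 and not with shRNA1. *Npat*, the coactivator of histone genes at the histone locus body, was at 0.06 and 0.10 without passing the test.

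The histone genes listed as replication-independent, which mainly make polyadenylated mRNA, were measured at far higher counts. Of 11 tested, 2 were higher and 5 lower with shRNA1, and 4 were higher and 5 lower with shRNA2 (medians -0.09 and -0.11), beside 13.8% higher and 17.1% lower of all genes with shRNA1 and 27.2% and 28.7% with shRNA2. Without nt-shRNA replicate 1 the medians were -0.09 with shRNA1 and -0.16 with shRNA2. *H2afy*, which encodes macroH2A1, was at 236, 249 and 255 CPM with shRNA1, 164, 133 and 177 with shRNA2 and 298 and 302 with nt-shRNA, with log2 fold changes of -0.28 (adjusted p = 0.0144) and -0.93 (adjusted p = 2.6e-08). The 3 groups did not overlap and the controls were level, but without nt-shRNA replicate 1 the shRNA1 call was lost (-0.29, adjusted p = 0.0694). *H2afv* (H2A.Z.2; -0.30 and -0.48), *H2afx* (H2A.X, marked at DNA breaks; -0.58 and -0.24) and *Cenpa* (the centromeric H3; -0.32 and -0.21) were lower with both hairpins. The linker histones *H1f0* (0.38 and 0.74) and *H1fx* (0.46 and 0.24) were higher with both. Several of these calls depend on the setting. With shRNA2 the adjusted p over the alternatives reached 0.316 for *H2afx*, 0.11 for *Cenpa* and 0.278 for *H1fx*, and with shRNA1 it reached 0.0767 for *H1f0*. With nt-shRNA replicate 1 left out, *H2afv* was not called with shRNA1 (-0.27, adjusted p = 0.0519), nor were *Cenpa* (-0.19, adjusted p = 0.0691) and *H1fx* (0.29, adjusted p = 0.0747) with shRNA2.

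S-phase genes were given for comparison, since histone genes follow DNA replication. Of 12 tested, 1 was higher and 2 lower with shRNA1, and 3 were higher and 2 lower with shRNA2 (medians -0.09 and -0.01). The 2 lower genes with shRNA1 and the 3 higher with shRNA2 are near the shares of all genes, 17.1% and 27.2%. Their summed level was 3312 and 3397 CPM with nt-shRNA, 3104, 3034 and 3200 with shRNA1 and 3191, 3446 and 3291 with shRNA2. The shRNA1 libraries lay below both controls, and the shRNA2 libraries overlapped them. *Gins2* (-0.49 and -0.64) and *Mcm6* (-0.28 and -0.46), both of the replicative helicase, were lower with both hairpins, also without nt-shRNA replicate 1 (-0.48 and -0.63, and -0.32 and -0.51). *Pcna*, the sliding clamp, did not pass the test in either (-0.16 and -0.02). The part of the cell cycle in the histone values was not tested.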

How the data were processed

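RNA of R1 mESCs was poly(A)-selected, made into NEBNext Ultra II libraries and sequenced as 100-base paired reads. The authors aligned reads to mm10 with STAR (end-to-end) and deposited raw counts of fragments per GENCODE M24 gene from featureCounts 1.6.2, without strand and without fragments that align to several places or overlap several genes. All 8 count columns were used and 0 left out; the columns match the sample titles. The 70 members and the lists were chosen with earlier results of these data known, and the RNAs without a tail and the grouping by 3′ end after the counts had been seen.

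Counts were normalized by TMM and tested over all 17445 genes that passed filterByExpr (minimum count 10) with glmQLFTest of edgeR 4.0.16 (R 4.3.3), in 1 fit of the 8 libraries that estimates each group and uses no replicate block. A gene was called where its p, adjusted by Benjamini-Hochberg, was under 0.05, and the SE was taken from the F statistic. CPM are counts scaled to 1000000 a library after TMM. Named members were the 4 highest of each class and all called with both hairpins; named list genes were those called with both, up to 8 a list. Simulated data were used to check the script. Replicates differed by more than sampling noise (chi-square a gene of 3.12 to 12). Libraries held 19569525 to 29871048 counts; the limits given for a count of 0 cover counting error only. Alternatives were DESeq2 1.42.0, other scalings, filters and fits, and leaving out each library. Exonic lengths in GENCODE M21 and the deposited table were equal for 70 members. Tables were made with pandas and figures with matplotlib. Promoters came from RefSeq, and no promoter or protein sequence is printed.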

Additional observations from a re-analysis of the deposited data

Results flagged for a closer look

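The effects of the 2 hairpins differed by a direct test of shRNA2 against shRNA1 (edgeR, adjusted p under 0.05) for 4 of the named histone genes. The log2 difference, shRNA2 minus shRNA1, was 0.80 for *Hist1h2bc*, 0.96 for *Hist1h4i*, 0.79 for *Hist2h2be* and -1.23 for *Hist1h3e*. Over the alternatives the adjusted p ranged from 1.0e-05 to 0.00728 for *Hist1h2bc*, from 2.1e-05 to 0.0256 for *Hist1h4i*, from 0.0201 to 0.145 for *Hist2h2be* and from 4.5e-04 to 0.0763 for *Hist1h3e*.

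Among the named genes of histone mRNA processing and transcription, the same test found differences of 0.63 for *Ncbp2*, 0.42 for *Srrt*, 0.21 for *Tut7*, -0.19 for *Sympk*, 0.16 for *Eri1* and 0.24 for *Cramp1l*. Among the replication-independent histone genes it found -0.65 for *H2afy*, 0.36 for *H1f0*, -0.19 for *H2afv* and 0.34 for *H2afx*. Over the alternatives the adjusted p of the direct test reached 0.0714 for *Tut7*, 0.0793 for *Sympk*, 0.178 for *Eri1*, 0.0527 for *Cramp1l* and 0.147 for *H2afv*. It stayed under 0.05 for the other genes of these 2 lists named here. As 35.6% of all tested genes differed between the hairpins, such calls are frequent in these data.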

How the results depend on the processing

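The log2 ratios of the sums and the medians over the tested histone genes kept their direction against nt-shRNA in all alternatives run on them, except the sum of H2B with shRNA2, which was 0.29 without nt-shRNA replicate 1 and 0.04 without the members that share at least 50% of their windows, an alternative chosen after seeing the data. The median of the transcription list with shRNA1 turned from -0.02 to 0.03 without nt-shRNA replicate 1. A filter of at least 10 counts in every library, which leaves 10 histone genes, gave 4 calls with shRNA1 and 5 with shRNA2 and medians of -0.38 with shRNA1, -0.07 with shRNA2 and 0.13 for shRNA2 against shRNA1. DESeq2 called 11 histone genes with shRNA1. With the highest member left out, the log2 ratio of the sum with shRNA2 against nt-shRNA was -1.08 for H2B and -1.51 for H4. Against shRNA1 it turned to -0.18 for H1, -0.10 for H2B and -0.18 for H4. Of the ranges of called histone genes that follow, those against nt-shRNA take both ends from fits with a lone control. Their upper ends come from the fit without nt-shRNA replicate 2, where 40 histone genes were tested. The genes added there passed the filter through nt-shRNA replicate 1, which favours lower calls, so the upper ends describe this selection too. Among all genes, the same fits called 4306 to 6437 between the hairpins and up to 10017 with shRNA2, whose lower end comes from a lone control. The ranges of histone genes were not set against the share of all genes called in each fit, so none is shown to exceed it. Leaving out each library in turn gave 1 to 23 called histone genes with shRNA1, 12 to 28 with shRNA2 and 2 to 5 between the hairpins, where a fit of the KD libraries alone called 6 of 14. It gave 2 to 12 called genes of processing and transcription with shRNA1 and 4 to 10 between the hairpins, 4 to 8 replication-independent genes with shRNA1, and 2948 to 5903 among all genes with shRNA1.

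The log2 fold change of *Eftud2* with shRNA1 passed the test with no filter (-0.18) and in a fit of the groups compared (-0.16), and was -0.20 to -0.16 with a library left out. Between the hairpins it was -0.19 to -0.07. The lowest and highest values with a library left out spanned 0 for some genes not called with all libraries. Of these, *Hist1h1b* with shRNA1 (-1.05, adjusted p = 0.0466) and *Hist1h1c* with shRNA2 (-0.59, adjusted p = 0.00967) were called without nt-shRNA replicate 2. Against nt-shRNA with shRNA1 they were -1.05 and 0.45 for *Hist1h1b*, -0.36 and 0.46 for *Hist1h2ae*, -1.29 and 0.59 for *Hist1h2ah*, and -0.70 and 0.21 for *Hist1h4i*. With shRNA2 they were -0.75 and 0.75 for *Hist1h1b*, -0.59 and 0.12 for *Hist1h1c*, -0.39 and 0.42 for *Hist1h2ae* (0.06 with library size alone), -0.77 and 1.10 for *Hist1h2ah*, and -0.03 and 0.26 for *Hist3h2ba*. Between the hairpins they were -0.68 and 0.15 for *Hist1h1e*, -0.29 and 0.16 for *Hist1h2ae*, -0.49 and 0.06 for *Hist1h2al*, -0.59 and 0.24 for *Hist1h3i*, -0.63 and 0.04 for *Hist1h4k*, and -0.21 and 0.06 for *Hist3h2ba*. The cause was not tested.

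Replicate numbers were not treated as pairs. The correlations of same-numbered libraries were -0.0259 to 0.0742. Between shRNA1 and shRNA2 they were 0.0223, 0.0566 and 0.0742, against -0.0827 to 0.0277 for libraries with unlike numbers. Values this weak neither show nor exclude a pairing. A fit with the replicate block called 18 histone genes with shRNA1, 20 with shRNA2 and 5 between the hairpins. The fit without it called 17, 20 and 4, and the blocked counts were not set against the share of all genes. The blocked fit (edgeR) gave -0.21 for *Eftud2* with shRNA1 (adjusted p = 0.0206) and 0.04 for *Hist1h2ae* with shRNA2.

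With 637 to 2022 histone counts a library, 39 of the 70 genes were too low to test, and a gene that did not pass the test is not shown to be level. With nt-shRNA replicate 1 left out, the lone control is assumed to vary like the other groups.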
